A study of Caenorhabditis elegans with 8 samples.

Results

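The histone variant genes described here are 7 of the 21774 genes in a table of polyadenylated RNA from Caenorhabditis elegans gametes and early embryos. They were chosen by sequence name: the H3.3-type genes his-72 (Y49E10.6), his-74 (W05B10.1), his-71 (F45E1.6) and his-70 (E03A3.4), the H2A.Z gene htz-1 (R08C7.3), and the centromeric H3 genes hcp-3 (F58A4.3) and cpar-1 (F54C8.2). All 7 had a row in the table. The series followed the passage from oocyte to embryo, with 2 libraries in each of 4 groups, namely sperm, oocytes, 1-cell embryos and the 2-cell stage. Values are RPKM, reads scaled to gene length and library size, as the authors deposited them.

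Every group is labelled with strain TX189 (OMA-1::GFP) and with 24 °C. The protocol differs from that label. It describes oocytes picked by mouth pipette from cut wild-type N2 hermaphrodites, and sperm filtered from males of a fog-2(q71) background and activated with Pronase. It describes 1-cell embryos as sorted by flow cytometry, and names no collection method for 2-cell embryos. Strain, collection and stage therefore cannot be told apart. Whether libraries of a group came from separate cultures is not labelled. The p-values therefore reflect only how far these libraries differed, which may be technical.

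Most nucleosomes carry core histones made in S phase, while variants are made and inserted at other times. H3.3 is placed where nucleosomes are lost, by chaperones that differ from those that follow the replication fork, and it takes part in repackaging paternal chromatin after fertilization. H2A.Z replaces H2A near promoters through a SWR1-type exchange complex. CENP-A is the H3 variant that marks centromeres. In this worm, whose chromosomes are holocentric, hcp-3 encodes the main CENP-A protein and cpar-1 a close paralog known from meiotic chromosomes.

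Fewer cells of a type and less RNA per cell cannot be told apart in these bulk samples. The summed RPKM of a library ran from 642169 to 679187 in oocytes, from 832603 to 923528 in embryos, and from 954484 to 1.01351e+06 in sperm. The oocyte libraries listed 2.48% and 2.93% of genes at 0 and the embryo libraries 26.4% to 29.4%, a difference the labels do not account for. Whether the oocyte values were processed differently from the others is not given in the sources used here, so stage and processing cannot be told apart in any comparison with oocytes. The table gives no counts. Few genes with low values shared a common step. The commonest step held 1.56% to 3.01% of them in the embryo and sperm libraries, and 0.686% and 0.666% in oocytes. Depths of 1.78e+07 to 7.08e+07 reads were estimated from these steps in the embryo and sperm libraries. With so few genes on a step these depths are uncertain, and none is given here for oocytes. All 14 listed sperm markers were at 1 RPKM or more in both sperm libraries, against at most 1 in an oocyte library. All 14 listed oocyte markers were at 1 RPKM or more in oocytes and in sperm alike. Of these, 12 were called lower in sperm than in oocytes and 0 higher. The genes perm-2 (C44B12.1) and perm-4 (C44B12.5), named after their values were seen, were not called. They had 3.38 and 3.81 RPKM in oocyte replicate 1 and 63.4 and 82.2 in sperm replicate 1. In replicate 2 they had 2.83 and 3.20 RPKM in oocytes and 5.21 and 4.01 in sperm.

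The H3.3-type genes differed in level by orders of magnitude, and his-72 and his-74 made up nearly all of their RNA outside sperm. his-72, one of the standard H3.3 genes of the worm, stood at 1098 and 893 RPKM in the oocytes, 1326 and 2224 at the 1-cell stage, 1582 and 2312 at the 2-cell stage, and 299 and 87.2 in the sperm. The sperm libraries were lowest, and the embryo libraries of replicate 1 lay below those of replicate 2 at both stages. In every oocyte and embryo library his-72 ranked among the 91 most abundant genes of the table.

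his-74, a more divergent H3.3-type gene, stood at 789.8 and 691 RPKM in the oocytes, 2747 and 2657 at the 1-cell stage, 2645 and 2583 at the 2-cell stage, and 234.6 and 114 in the sperm. Its embryo libraries were tightly grouped and lay above both oocyte libraries, which lay above both sperm libraries. At rank 12 it was the most abundant of the 7 genes in the 1-cell embryo library of replicate 1. Mean RPKM was 3.65-fold higher in 1-cell embryos (2702 ± 64.0, SD, n = 2) than in oocytes (740.2 ± 70.2, SD, n = 2).

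his-71, the other standard H3.3 gene, was far rarer. It had 14.2 and 14.0 RPKM in the oocytes, 44.6 and 27.04 at the 1-cell stage, 38.9 and 23.0 at the 2-cell stage, and 16.9 and 21.3 in the sperm. The embryo libraries were the highest, with replicate 1 above replicate 2. Within a library, his-72 exceeded his-71 by 29.7-fold to 101-fold in embryos, by 63.9-fold and 77.2-fold in oocytes, and by 17.6-fold and 4.10-fold in sperm.

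his-70, the fourth H3.3-type gene, showed the opposite distribution. Its values were 125 and 202 RPKM in sperm, 0.10 and 0.0819 in the oocytes, 0 and 0.15 at the 1-cell stage, and 0.448 and 0.0877 at the 2-cell stage. Only the sperm libraries stood above 1 RPKM, and a value of 0 does not show that the RNA was absent. his-70 ranked 877 and 656 in the sperm libraries.

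htz-1, the only H2A.Z gene of the set, had 933 and 943 RPKM in the oocytes, 2035 and 1313 at the 1-cell stage, 2038 and 1434 at the 2-cell stage, and 185 and 45.8 in the sperm. The oocyte libraries nearly coincided, the embryo libraries spread by replicate number, and the sperm libraries were lowest and differed by 4.05-fold.

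hcp-3 had 149 and 159 RPKM in the oocytes, 284 and 167 at the 1-cell stage, 281 and 182 at the 2-cell stage, and 83.9 and 29.1 in the sperm. As for htz-1, replicate 1 was the higher library at both embryo stages. cpar-1 had 187 and 210.3 RPKM in the oocytes, 102 and 96.98 at the 1-cell stage, 71.4 and 51.9 at the 2-cell stage, and 23.7 and 7.42 in the sperm. The libraries of its 4 groups did not overlap, in the order oocyte, 1-cell embryo, 2-cell embryo, sperm. It was the only one of the 7 genes with its highest values in oocytes.

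**Figure D1:**
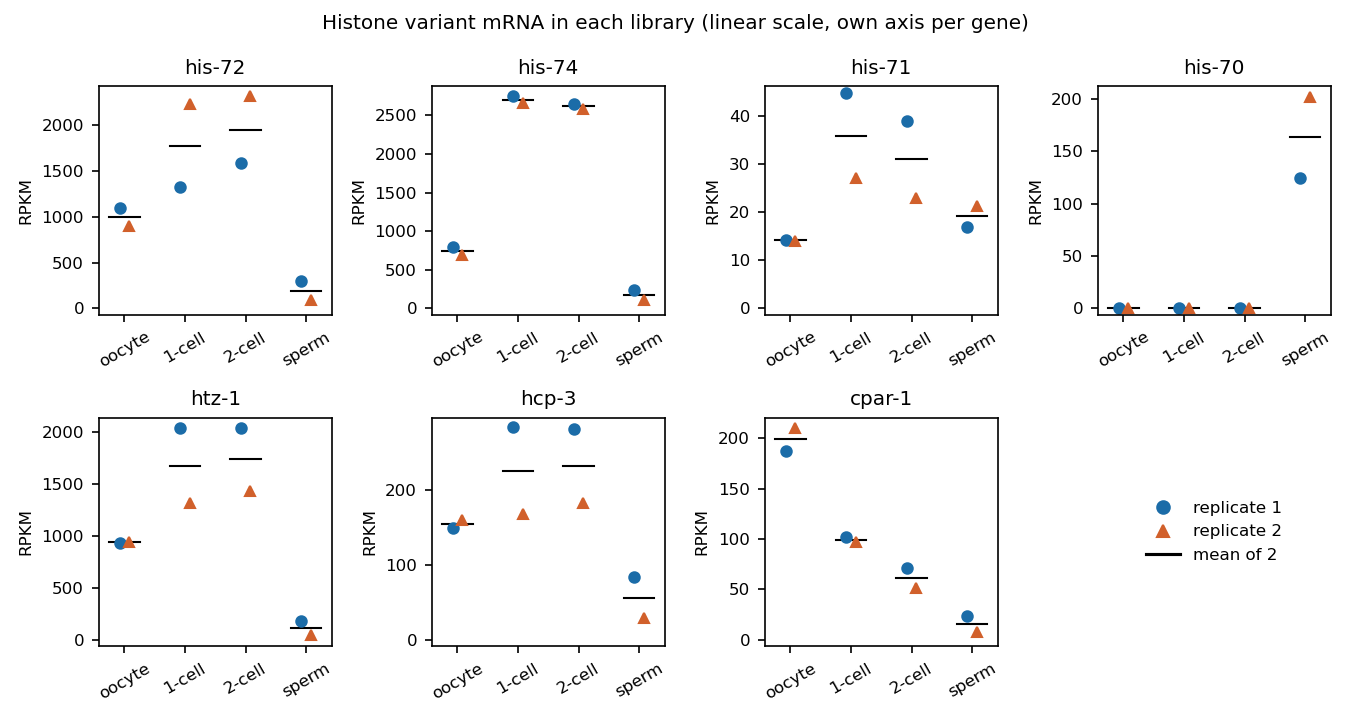
RPKM of each histone variant gene (vertical axes, linear, 1 range per gene) by group, from oocytes to embryos to sperm; circles are replicate 1, triangles replicate 2 and bars the mean of 2. his-74 averages 2702 RPKM in 1-cell and 2614 in 2-cell embryos, his-70 is above 100 RPKM in sperm only, and cpar-1 steps down from oocytes (mean 199) to sperm (mean 15.6).

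Differences were tested with limma on log2(RPKM + 1), a scale that understates the change of low genes, with Benjamini-Hochberg adjustment over the 11935 genes that reached 1 RPKM in 2 or more libraries. A call needed adjusted p below 0.05 together with a 2-fold difference (log2 of 1 or more, in either direction). All 7 members passed the filter. his-70 passed only through its sperm libraries, so that its difference there follows in part from the filter. The comparisons with oocytes share the same 2 oocyte libraries.

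Between oocytes and 1-cell embryos, the step around fertilization, his-74 was the 1 member called, and it was higher. Over all genes tested 23.0% were called, 17% higher and 5.92% lower. Its log2 difference was 1.87 (SE 0.40, adjusted p = 0.0170). The log2 difference was 1.24 for his-71 (adjusted p = 0.0585), 0.79 for his-72 (0.381), 0.80 for htz-1 (0.401), 0.50 for hcp-3 (0.576) and -0.02 for his-70 (0.9995). cpar-1 had -0.99 (adjusted p = 0.193). In 6 of 7 members the libraries of the groups did not overlap, a state shared by 75.4% of all genes tested. The call of his-74 ended under each scaling tried and without any 1 oocyte or 1-cell library, with log2 differences of 1.17 to 1.97. Without either oocyte library almost all calls over all genes ended, so the loss there was not particular to his-74. Its limma call ended as well without the filter on low values (adjusted p = 0.0636).

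his-74 lay between the quartiles of genes of its own transcript length at this step. Among 682 genes with transcripts within 20% of its annotated 580 nucleotides and averaging 10 RPKM or more, the median log2 difference was 1.47, with quartiles of 0.68 and 2.01, and 52.3% of them were called higher. For the 6855 genes of any length at that same level of abundance the median was 0.56, and 22.6% were called higher. The value of his-71 (591 nucleotides) lay between the quartiles as well, where 711 such genes had a median of 1.45 and quartiles of 0.68 and 1.99. Those of his-72 (631 nucleotides; median of similar genes 1.42), htz-1 (734 nucleotides; 1.31) and hcp-3 (1014 nucleotides; 0.92) were below those medians and above the lower quartiles. cpar-1 (897 nucleotides) lay outside: 1185 genes of similar length had a median of 1.07 and quartiles of 0.38 and 1.67, against its own -0.99. With the length trend removed the log2 difference was 0.26 for his-74 (adjusted p = 0.664) and -2.10 for cpar-1 (adjusted p = 0.0120), which was then called lower. his-70, at 0.15 RPKM or less in both groups, also received a lower call in that limma fit (-1.96, adjusted p = 0.0262), against -0.02 before. The trend was fitted on genes at a mean level of 10 RPKM or more and subtracted from all genes. The value of his-70 therefore comes from the subtracted trend and is no measured difference of this gene.

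Scaling changed the balance of directions at this step. Of all calls, 2033 were higher and 707 lower on the values as deposited, against 595 and 1271 with median-of-ratios scaling, 554 and 884 with quantile normalization, 947 and 960 with a common sum and 632 and 1359 with the length trend removed. With median-of-ratios scaling the median over all genes tested moved from 0.35 to 0.05. The log2 difference of hcp-3 turned to -0.20 with median-of-ratios scaling and to -0.08 with quantile normalization. That of cpar-1 was -1.42 to -1.68 under the 3 scalings, and it was called lower with median-of-ratios scaling (adjusted p = 0.0372).

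Between 1-cell and 2-cell embryos, which spans the first division, none of the 7 members was called by limma, as was the case for nearly all genes: 2 genes were called (0.0168%), and 78 of the 11935 had an unadjusted p under 0.05, none of them a member. The largest difference among the members was that of cpar-1, at -0.70 (SE 0.50, 95% confidence interval -1.86 to 0.47). Within same-numbered libraries cpar-1 was lower at the 2-cell stage in both cases, by a log2 difference of -0.51 for replicate 1 and -0.89 for replicate 2. For his-70, under 0.5 RPKM in every embryo library, the same differences were 0.53 and -0.08. The 2-cell value was 0.963 and 0.972 of the 1-cell value for his-74, 1.00 and 1.09 for htz-1, 0.990 and 1.09 for hcp-3, 0.872 and 0.851 for his-71, and 1.19 and 1.04 for his-72. Libraries did not overlap for 2 of the 7 members, his-74 and cpar-1, against 16.2% of all genes. The 95% confidence intervals reached from -1.21 to 1.52 for his-72 and from -1.37 to 1.5 for htz-1. This fit therefore did not exclude 2-fold changes in either direction for these genes. Each gene had 1 estimate of spread over all 4 groups, so the intervals also carry the spread of the sperm and oocyte libraries. The median SD on the log2 scale was 0.31 in 1-cell embryos, 0.29 in 2-cell embryos, 0.41 in sperm and 0.094 in oocytes. No fit paired the embryo libraries alone by number.

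Between oocytes and 2-cell embryos 2 members were called, against 21.6% of all genes. his-74 rose by 1.82 on the log2 scale (SE 0.40, adjusted p = 0.0202), and cpar-1 fell by 1.69 (SE 0.50, adjusted p = 0.0480). In that step 16.4% of all genes were called higher and 5.17% lower, and libraries did not overlap for 6 of 7 members against 76.2% of all genes. cpar-1 went from 199 ± 16.5 to 61.6 ± 13.8 RPKM (SD, n = 2 each), a 3.22-fold lower mean. The call of cpar-1 held with median-of-ratios scaling, with libraries scaled to a common sum and with the length trend removed (-2.71, adjusted p = 0.00532). It ended with quantile normalization (adjusted p = 0.103), without the filter on low values (adjusted p = 0.129), and without any 1 oocyte or 2-cell library (log2 -1.46 to -1.91). The call of his-74 ended with both of those rescalings, with the length trend removed (0.38), without the filter, and without any 1 of those libraries. It held with quantile normalization. Without either oocyte library almost all calls over all genes ended, so the losses there were not particular to cpar-1 or his-74. The log2 difference was 1.03 for his-71 (adjusted p = 0.0999), 0.95 for his-72 (0.283), 0.87 for htz-1 (0.355), 0.55 for hcp-3 (0.515) and 0.20 for his-70 (0.748).

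**Figure D2:**
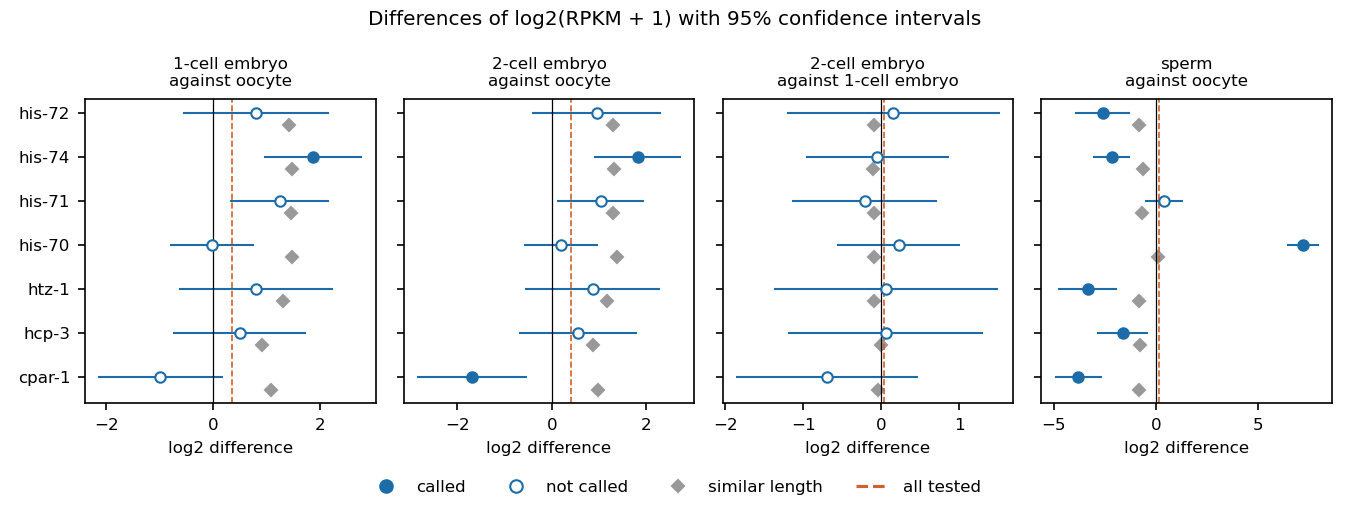
Difference of log2(RPKM + 1) of each gene (horizontal axes, with 95% confidence intervals from limma) in 4 comparisons; filled circles are called, grey diamonds give the median of genes of similar transcript length and the dashed line that of all genes tested. his-74 (1.87) is called higher in 1-cell embryos close to genes of its length, while cpar-1 (-0.99) lies on the other side of 0 from genes of its length.

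Sperm against oocytes gave calls for 6 members, 1 higher and 5 lower, where 61.3% of all genes were called (36.7% higher and 24.6% lower). Among genes averaging 10 RPKM or more and of similar length to a member, 69.5% (cpar-1) to 77.4% (his-70) were called. The 5 lower members were those with over 100 RPKM in oocytes. The log2 difference was -3.79 for cpar-1 (SE 0.50, adjusted p = 3.1e-04), -3.33 for htz-1 (SE 0.62, 0.00192) and -2.61 for his-72 (SE 0.59, 0.00517). It was -2.17 for his-74 (SE 0.40, adjusted p = 0.00176) and -1.62 for hcp-3 (SE 0.54, 0.0292). Mean RPKM was 12.8-fold lower for cpar-1, 8.11-fold for htz-1 and 2.73-fold for hcp-3.

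his-70 was the member that was higher, with a log2 difference of 7.19 (SE 0.34, adjusted p = 1.4e-06). his-71 had a log2 difference of 0.40 (adjusted p = 0.407), which turned to -0.14 with libraries scaled to a common sum and to -0.09 with quantile normalization. The call of hcp-3 ended without sperm replicate 2 (-0.87, adjusted p = 0.164), without either oocyte library, with quantile normalization, and when low genes were not filtered out. With the length trend removed the calls of his-74 (-0.89) and hcp-3 (-0.30) ended and his-71 was called higher (1.69), in a fit that moved the median over all genes tested from 0.16 to 1.08 in this comparison.

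Against 1-cell embryos the same 6 members were called in sperm, where 68.5% of all genes were called (35.3% higher and 33.2% lower). Among genes averaging 10 RPKM or more and of similar length to a member, 87.1% (hcp-3) to 94.4% (his-72) were called. Of any length at that abundance 71.1% were called. The log2 difference was -4.13 for htz-1 (adjusted p = 5.2e-04), -4.04 for his-74 (5.1e-05), -3.40 for his-72 (0.00114), -2.80 for cpar-1 (0.00138) and -2.11 for hcp-3 (0.00802), and 7.22 for his-70 (1.8e-06). his-71 had -0.84 (adjusted p = 0.0926). Libraries did not overlap for any of the 7 members, as for 83.1% of all genes; against oocytes the same held for 7 of 7 and 86.8%. The call of hcp-3 ended with quantile normalization (adjusted p = 0.0805). With the length trend removed, which moved the median of all genes from -0.18 to 1.05, the calls of his-72 (-0.56), cpar-1 (-0.35) and hcp-3 (0.14) ended.

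The 5 variants that were low in sperm were higher in sperm replicate 1 than in replicate 2, by 2.05-fold for his-74, 2.88-fold for hcp-3, 3.19-fold for cpar-1, 3.43-fold for his-72 and 4.05-fold for htz-1. his-70 was 1.62-fold and his-71 1.25-fold higher in replicate 2. The 14 oocyte markers were all higher in sperm replicate 1 as well, with a median ratio of 4.59 and sums of 1337 and 325 RPKM in the sperm libraries, against 24153 and 22989 in oocytes; none of them was at 0 in sperm. Over 11818 genes the median ratio was 1.03, and for the 1425 of them that averaged 100 RPKM or more in oocytes it was 1.65. Markers of body wall muscle summed to 2816 and 4662 RPKM in the sperm libraries, against 55.5 and 45.6 in oocytes, with none of 11 at 0. Of the 11, unc-97 (F14D12.2) was below its oocyte values in sperm and hlh-1 (B0304.1) stayed under 1 RPKM there. The 12 markers of intestine and yolk summed to 679 and 117 RPKM in sperm, where 10 and 5 of them reached 1 RPKM. To these sums asp-1 (Y39B6A.20) gave 374 and 72.9 RPKM and cpr-1 (C52E4.1) 213 and 25.7, while elt-2 (C33D3.1) and ges-1 (R12A1.4) stayed under 1 RPKM. The part of such RNA in the sperm values was not tested. Without sperm replicate 1 the log2 difference against oocytes was -4.33 for htz-1, -4.56 for cpar-1, -3.49 for his-72 and -2.37 for hcp-3. Without replicate 2 it was -2.33 for htz-1, -3.01 for cpar-1, -1.73 for his-72 and -0.87 for hcp-3.

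The embryo libraries held low levels of sperm markers. These 14 genes summed to 65.4 and 60.96 RPKM at the 1-cell stage, 74.1 and 36.3 at the 2-cell stage, 6.17 and 1.44 in oocytes and 31447 and 32249 in sperm. The part of sperm RNA in the his-70 values of embryos was not tested. Early zygotic markers of older embryos summed to 76.5 and 71.6 RPKM at the 1-cell stage and 83.5 and 119.9 at the 2-cell stage, and to 27.4 and 31.3 in oocytes.

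The order of the 4 groups differed between the genes. For his-72, htz-1 and hcp-3 sperm was below oocytes, and the mean levels of oocytes, 1-cell and 2-cell embryos followed with no neighbouring pair that passed the test. For his-74 the order was sperm, oocyte, 2-cell embryo and 1-cell embryo, and the embryo stages did not differ beyond the test. For cpar-1 the order was sperm, 2-cell embryo, 1-cell embryo and oocyte. Neither of the latter 2 neighbouring steps passed the test, while oocytes and 2-cell embryos differed; sperm and 2-cell embryos were not tested against each other, and their libraries did not overlap. For his-71 the order was oocyte, sperm, 2-cell embryo and 1-cell embryo, with no tested pair called.

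Ratios within a library do not change with library scaling, and they showed how the make-up of the variant RNA differed. Of the summed H3.3-type RPKM, his-72 gave 57.7% and 55.9% in the oocytes, 32.2% and 45.3% at the 1-cell stage, 37.1% and 47.01% at the 2-cell stage, and 44.2% and 20.5% in the sperm. his-74 gave 41.5% and 43.2% in the oocytes, 66.7% and 54.1% at the 1-cell stage, 62.0% and 52.5% at the 2-cell stage, and 34.8% and 26.9% in the sperm. his-72 thus led in both oocyte libraries and his-74 in all 4 embryo libraries.

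his-70 gave 18.5% and 47.5% of the H3.3-type RPKM in sperm, and at most 0.0105% in any other library. his-71 never gave more than 5.01%. The sum itself was 1902 and 1598 RPKM in the oocytes, 4117 and 4908 at the 1-cell stage, 4266 and 4919 at the 2-cell stage, and 675 and 425 in the sperm. How any reads shared by these related genes were counted is not given in the sources used here, so the split among them is uncertain.

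The centromeric pair exchanged places between oocyte and embryo. hcp-3 stood at 0.796 and 0.758 of cpar-1 in oocytes, at 2.79 and 1.72 times cpar-1 in 1-cell embryos, and at 3.93 and 3.51 times in 2-cell embryos. In sperm the ratio was 3.54 and 3.92. cpar-1 was the more abundant of the pair in the oocyte libraries only, and the ratios of oocytes, 1-cell and 2-cell embryos did not overlap. With 2 libraries a group, an exact two-sided permutation test cannot give a p below 0.333 for such a ratio.

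**Figure D3:**
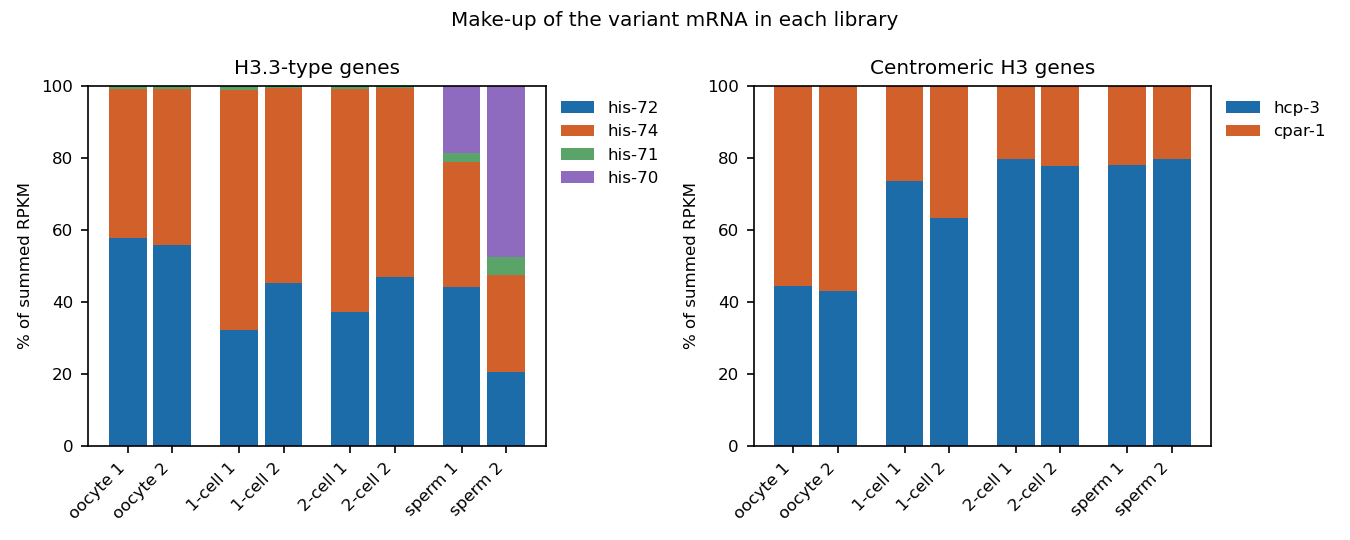
Share of each gene in the summed RPKM of the H3.3-type genes (left) and of the centromeric H3 genes (right) in each of the 8 libraries, in percent. his-70 (purple) is visible in the sperm libraries only, at 18.5% and 47.5%, and cpar-1 goes from 55.7% and 56.9% in oocytes to 20.3% and 22.2% in 2-cell embryos.

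The genes whose pattern over the 8 libraries was most like each member were found by Pearson's r of log2(RPKM + 1) among 6861 genes averaging 10 RPKM or more. The libraries are 4 pairs, so r is a description. For his-70 these were ZK39.10, D1081.5 and T09F5.10, each with r = 1.00, of which D1081.5 had 124 and 192 RPKM in sperm and at most 0.45 elsewhere. For cpar-1 they were the ribonucleotide reductase gene rnr-1 (T23G5.1; r = 0.993), the pseudophosphatase gene egg-5 of egg activation (R12E2.10; r = 0.990) and a gene with no symbol in the annotation (r = 0.989). egg-5 had 271 and 302 RPKM in the oocytes, 111 and 83.6 at the 1-cell stage, 102 and 70.1 at the 2-cell stage, and 25.01 and 6.61 in the sperm, close to the steps of cpar-1.

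For his-74 the nearest genes were the ubiquitin-conjugating enzyme gene ubc-18 (R01H2.6), F29A7.6 and the myosin light chain gene mlc-5 (T12D8.6), each with r = 0.999. For his-72 they were T25E12.6 (r = 0.999), W01G7.4 (0.995) and the exosome gene exos-1 (Y48A6B.5; 0.994). For htz-1 they were F33E2.5, acbp-5 (T12D8.3) and T21C9.13, each with r = 0.995. For hcp-3 they were pus-1 (W06H3.2; 0.996), wdr-37 (C05D2.10; 0.992) and C37A5.7 (0.991). The best matches of his-71 were weaker, T25B9.8 (0.983), ZK1248.15 (0.982) and ipla-6 (Y73B6BL.4; 0.981). Among the members themselves htz-1 and hcp-3 were the most alike (r = 0.982), and his-70 ran against htz-1 (r = -0.945).

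Genes that place H3.3 or other new histones moved in both directions at the step to the 1-cell embryo. Of 9 such genes in the table and tested, 2 were higher and 1 lower, against 17% and 5.92% of all genes, with a median log2 difference of 0.86 against 0.35 over all genes. chaf-1 (T06D10.2), the large subunit of the replication-coupled assembly factor CAF-1, had 19.7 and 21.4 RPKM in oocytes and 116 and 242 at the 1-cell stage (log2 2.97, SE 0.46, adjusted p = 0.00834). xnp-1 (B0041.7), the worm ATRX remodeller, had 4.37 and 7.75 RPKM in oocytes and 24.5 and 39.7 at the 1-cell stage (log2 2.23, adjusted p = 0.0151). chaf-2 (Y71G12B.1), the other large CAF-1 subunit, had 218 and 182 RPKM in oocytes and 53.4 and 65.8 at the 1-cell stage (log2 -1.73, adjusted p = 0.0175).

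The ASF1-type chaperone genes asfl-1 (C03D6.5; log2 difference 1.25) and unc-85 (F10G7.3; -0.05) were not called at that step, nor was the histone-binding gene lin-53 (K07A1.12; 0.33). In sperm 5 of the 9 genes were lower than in oocytes and 1 was higher, against 24.6% and 36.7% of all genes. Their median was -1.28, against 0.16 over all genes and -0.64 over genes of any length averaging 10 RPKM or more. All of the 9 but chd-3 (T14G8.1) averaged that much. lin-53 was at -2.71 (adjusted p = 0.00288), unc-85 at -2.84 (0.00229) and asfl-1 at -1.28 (0.0194), as was rba-1 (K07A1.11) at -1.55 (0.0159), while xnp-1 was at 2.54 (0.00148). lin-53 and rba-1 are close copies, so reads may be split between them. The H3.3 chaperone gene hira-1 was not analysed here. The lists were tested without rescaling.

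Among 10 genes for H2A.Z exchange and the related TIP60 complex, 2 were higher and 0 lower in 1-cell embryos by limma, close to the 17% and 5.92% of all genes, with a median log2 difference of 0.06. gfl-1 (M04B2.3), a YEATS-domain subunit, had 41.2 and 54.02 RPKM in oocytes against 152 and 190.3 at the 1-cell stage (log2 1.83, adjusted p = 0.0165). The other was arp-6 (C08B11.6), an actin-related subunit of the SWR1 type, with a log2 difference of 1.2 (adjusted p = 0.0261). The acetyltransferase gene mys-1 (VC5.4) was called as well at the 2-cell stage (log2 1.63 against oocytes). ssl-1 (Y111B2A.22), the exchange ATPase, had 18.1 and 19.3 RPKM in oocytes and 7.43 and 1.84 in 1-cell embryos, a log2 difference of -2.01 that did not pass the test (adjusted p = 0.0696). In sperm 0 were higher and 2 lower than in oocytes, ruvb-1 (C27H6.2; -1.65) and gfl-1 (-1.97), while ssl-1 had 48.4 and 19.01 RPKM. Over all genes 36.7% were called higher there and 24.6% lower.

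Among 20 genes of the centromere and kinetochore, where CENP-A nucleosomes are read and attached to the spindle, 6 were higher and 1 lower in 1-cell embryos, with a median log2 difference of 0.95. Over all genes the shares were 17% and 5.92%. Among genes of any length averaging 10 RPKM or more, as all 20 do, 22.6% were called higher and the median was 0.56. Transcript length was not matched for this list. The most abundant of the higher genes were kbp-4 (Y92C3B.1; log2 difference 2.29), kbp-5 (C34B2.2; 2.08), kbp-3 (F26H11.1; 2.36) and kbp-1 (R13F6.1; 2.38). kbp-4 had 241 and 236 RPKM in oocytes against 699 and 1973 at the 1-cell stage (adjusted p = 0.0304), and kbp-1 had 60.7 and 74.96 against 513 and 246 (adjusted p = 0.0130). The 1 lower gene, named here after its value was seen, was cls-2 (R107.6; log2 -1.48, adjusted p = 0.0447), a CLASP-type microtubule regulator.

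The factors known to act with CENP-A at the start of the kinetochore pathway were not called at that step. hcp-4 (T03F1.9), the CENP-C gene, had 21.3 and 20.2 RPKM in the oocytes, 24.9 and 20.98 at the 1-cell stage, 26.8 and 21.9 at the 2-cell stage, and 136 and 177 in the sperm. knl-2 (K06A5.4), needed to load CENP-A, had 9.04 and 9.90 RPKM in the oocytes, 27.3 and 10.4 at the 1-cell stage, 26.3 and 18.5 at the 2-cell stage, and 47.4 and 64.9 in the sperm. Both were highest in sperm, where hcp-3 and cpar-1 were lowest. Against oocytes the log2 difference in sperm was 2.85 for hcp-4 (adjusted p = 1.2e-04) and 2.43 for knl-2 (adjusted p = 0.0025). Of the 20 genes, 8 were higher and 6 lower in sperm than in oocytes, where 36.7% and 24.6% of all genes were called higher and lower. The most abundant called genes were lower there, with log2 differences of -1.78 for kbp-4, -2.04 for kbp-5, -1.65 for kbp-1 and -2.05 for mis-12 (Y47G6A.24).

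The core histone genes whose products the variants replace were rare in this polyadenylated RNA. Of 13 tested replication-dependent H3 genes, 0 were called between oocytes and either embryo stage by limma, with medians of 0.70 and 0.58. Over all genes 23.0% were called in 1-cell and 21.6% in 2-cell embryos, with medians of 0.35 and 0.42. An unadjusted p under 0.05 was reached by 3 of the 13 genes in 1-cell and 0 in 2-cell embryos. Those 3 were lower in 1-cell embryos and averaged under 1 RPKM over the libraries. They were his-25 (ZK131.2; log2 -0.93), his-9 (ZK131.3; -0.98) and his-13 (ZK131.7; -0.91). The most abundant, his-59 (F55G1.2), had 40.8 and 33.3 RPKM in the oocytes, 63.4 and 44.7 at the 1-cell stage, 86.6 and 27.6 at the 2-cell stage, and 7.52 and 2.92 in the sperm. The 14 core H3 genes in the table summed to 105 and 81.4 RPKM in oocytes and 160.0 and 127 in 1-cell embryos, far under the H3.3-type sums given above. Only polyadenylated RNA was measured, so core transcripts without a polyA tail are missed. These sums therefore do not compare the total mRNA of core H3 and H3.3-type genes in the cells. In sperm 5 of the 13 were called lower than in oocytes and 0 higher, against 24.6% and 36.7% of all genes. Among the 5 were his-59 (log2 -2.71), his-63 (F22B3.2; -2.46), his-32 (F17E9.10; -2.27) and his-55 (F54E12.1; -2.14). Reads of these near-identical genes may be shared among them, so single values are uncertain.

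Of 9 tested genes listed here as replication-dependent H2A genes, 0 were called against oocytes at either embryo stage by limma. Over all genes 23.0% were called in 1-cell and 21.6% in 2-cell embryos. An unadjusted p under 0.05 was reached by 1 of the 9 genes at each stage. his-35 (C50F4.13) had 51.1 and 40.9 RPKM in the oocytes, 114 and 82.6 at the 1-cell stage, 109 and 74.99 at the 2-cell stage, and 86.3 and 79.4 in the sperm. Its log2 difference in sperm against oocytes was the highest of the list, 0.84 against a list median of -1.23. Whether his-35 belongs with the replication-dependent copies was not tested. his-68 (T23D8.6), the most abundant in oocytes, had 93.4 and 82.9 RPKM there, and 22.4 and 9.93 in sperm (log2 -2.48, adjusted p = 0.00192). his-61 (F55G1.10; -3.05) and his-3 (T10C6.12; -1.40) were lower in sperm as well. Thus 3 of the 9 genes were called lower in sperm than in oocytes, against 24.6% of all genes.

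At the step to the 1-cell embryo 17% of all genes were called higher and 5.92% lower. Of 9 linker histone H1 genes, hil-4 (C18G1.5) was the 1 called there, and it was lower. It had 1729 and 1453 RPKM in the oocytes, 607 and 463 at the 1-cell stage, 716 and 601 at the 2-cell stage, and 233 and 86.8 in the sperm (1-cell against oocyte, log2 -1.58, adjusted p = 0.0492). hil-8 (T05E8.2) resembled his-70 in being above 1 RPKM in sperm only, at 12.5 and 29.5 RPKM. The canonical H1 gene his-24 (M163.3) ranged from 10.4 to 231 RPKM within the 2-cell group, and its log2 difference of 3.01 between 1-cell embryos and oocytes did not pass the test (adjusted p = 0.213). In sperm hil-4 (log2 -3.47) and hil-5 (B0414.3; -2.85) were lower than in oocytes. There hil-8 was higher (4.24), a gene that passed the filter only through its sperm libraries. Over all genes 24.6% were called lower in sperm than in oocytes and 36.7% higher.

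Genes of sperm chromatin and of sperm nuclear structure were higher in sperm in 8 of 8 cases against oocytes, with a median log2 difference of 9.87, where 36.7% of all genes were called higher. Of the 8, 2 passed the filter on low values only through the sperm libraries, htas-1 among them, so that their calls follow in part from the filter. htas-1 (ZK1251.1), a sperm-specific H2A variant gene outside the 7, had 257 and 561 RPKM in sperm and at most 0.314 elsewhere. spch-1 (C04G2.8), for a small basic sperm chromatin protein, had 3306 and 3105 RPKM there, and its close copies spch-2 (C10G11.9) and spch-3 (T27A3.4) may share its reads. In sperm htas-1 thus exceeded htz-1 (185 and 45.8 RPKM), and his-70 lay below htas-1 in both libraries.

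**Figure D4:**
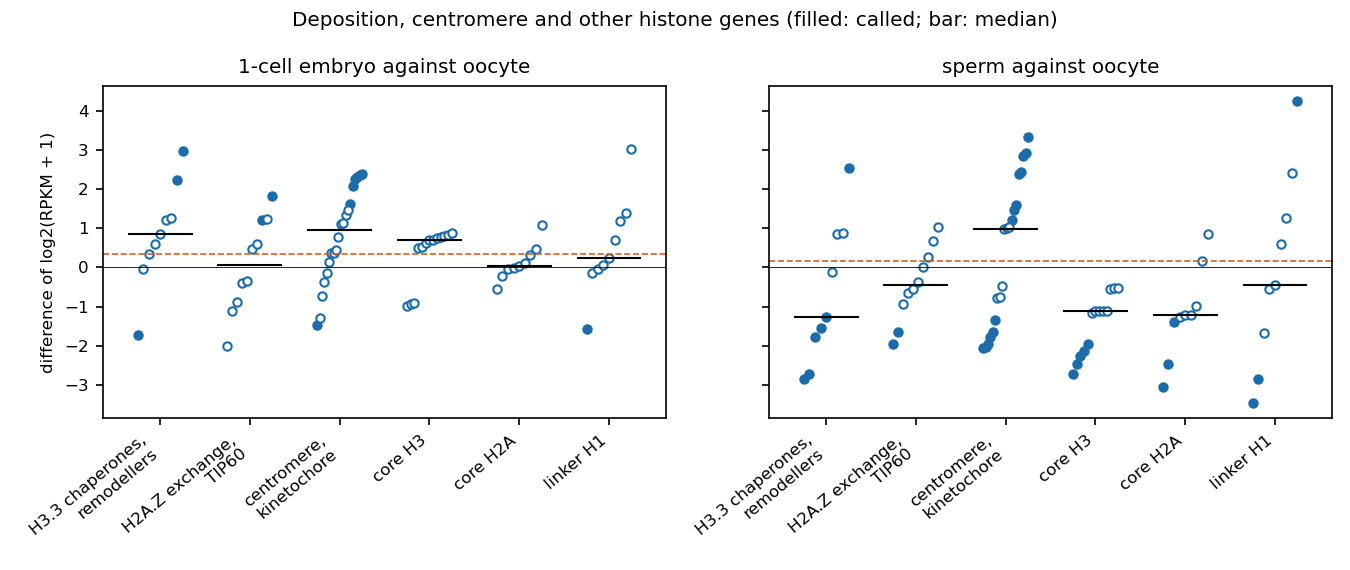
Difference of log2(RPKM + 1) for genes of 6 lists (1 point per gene tested; filled where called, bars at the list median, dashed line at the median of all genes tested) in 1-cell embryos against oocytes (left) and sperm against oocytes (right). Kinetochore genes reach 2.38 in the left panel and spread from -2.05 to 3.33 in the right one, while core H3 genes hold no filled point on the left.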

How the data were processed

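PolyA RNA of 8 libraries (4 groups of 2) was measured as RPKM, deposited by the authors in 1 table of 21774 genes. BWA is named in the submitters' processing notes; its settings, the genome build, the annotation and the handling of reads shared by gene copies are not given in the sources used here. The library kit in the labels' protocols marks no strand, so overlapping antisense genes cannot be told apart.

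Groups came from the sample titles. RPKM were turned into log2(RPKM + 1) and fitted with limma 3.58.1 (R 4.3.3) as 4 groups with a variance trend and 4 residual degrees of freedom. Two-sided p-values were adjusted by Benjamini-Hochberg in each of 5 comparisons, over the 11935 genes that reached 1 RPKM in 2 or more libraries. The fit was tested on simulated data. Depth is uncertain, so no counting intervals are given. Gene names came from Ensembl release 115 and RefSeq, which matched 18746 of 21774 IDs; 3028 had no match. Transcript lengths are those of that annotation, and no coordinates or sequences were used.

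The members and gene lists were chosen with earlier results of these data known. Genes named are the members, the 3 genes most like each, a short panel of known variant partners, and from each list up to 4 called genes of highest mean RPKM in a comparison, or 2 where none was called. Alternatives were 2 pseudocounts, no filter, only the compared groups, 3 scalings, a length trend removed by loess, a replicate block and leaving out each library.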

Additional observations from a re-analysis of the deposited data

How the results depend on the processing

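Of 609 alternative values for the 35 comparisons of a member, 538 kept their direction and side of the threshold, 35 lost and 4 gained a call, and 32 turned in direction; the cause was not tested. All values that turned belonged to comparisons without a call except hcp-3 in sperm against 1-cell embryos.

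With the length trend removed, log2 differences of 1-cell embryos against oocytes turned to -0.36 for his-71, -0.74 for his-72, -0.57 for htz-1 and -0.44 for hcp-3. Those of 2-cell embryos turned to -1.52 for his-70 (from the subtracted trend), -0.39 for his-71, -0.43 for his-72, -0.37 for htz-1 and -0.34 for hcp-3. In sperm against 1-cell embryos they turned to 2.04 for his-71 and 0.14 for hcp-3, and his-74 in 2-cell against 1-cell embryos to 0.12. Median-of-ratios scaling turned hcp-3 to -0.20 and -0.24 in 1-cell and 2-cell embryos against oocytes, and hcp-3 to -0.044 and htz-1 to -0.035 in 2-cell against 1-cell embryos. Quantile normalization turned his-70 in 2-cell embryos (-0.13) and his-71 in sperm (-0.086) against oocytes, hcp-3 in 1-cell embryos against oocytes (-0.083), and his-74 between the embryo stages (0.13). A common sum turned his-71 in sperm against oocytes (-0.14) and his-74 between the embryo stages (0.030). With 1 library left out, log2 differences against oocytes ran from -0.13 to 0.076 (1-cell) and from -0.0042 to 0.41 (2-cell) for his-70. Between the embryo stages they ran from -0.58 to 0.16 for his-71, -0.22 to 0.53 for his-72, -0.25 to 0.38 for htz-1 and -0.32 to 0.44 for hcp-3.

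For 1-cell embryos against oocytes the 2740 calls over all genes became 1370 without the filter and 1438 with quantile normalization. Calls among the 7 members became 0 without the filter, with quantile normalization and with a common sum. After the length trend was removed they became 2 (cpar-1 and his-70, both lower), of which that of his-70 came from the subtracted trend. Between the embryo stages the 2 calls over all genes became 0 with a pseudocount of 5, median-of-ratios scaling, quantile normalization, a fit of the compared groups alone or the length trend removed, 1 without the filter and 6 with a common sum. For 2-cell embryos against oocytes the 2577 calls became 1177 without the filter, 1612 with median-of-ratios scaling and 1285 with quantile normalization, and the 2 member calls became 0 without the filter and 1 with a common sum, after the length trend was removed, and with quantile or median-of-ratios scaling. Leaving out 1 library gave 6 to 2655 calls over all genes for 1-cell against oocyte (6 without either oocyte library, 1671 without 1-cell replicate 1), 0 to 2 between the embryo stages, 7 to 2970 for 2-cell against oocyte (11 without oocyte replicate 1, 7 without oocyte replicate 2, 857 and 303 without 2-cell replicates 1 and 2), 6003 to 7515 for sperm against oocyte and 7156 to 8232 for sperm against 1-cell. Member calls ranged from 0 to 1, 0 to 0, 0 to 2, 5 to 6 and 6 to 6 in the same order. A library left alone in its group was assumed to vary like the others.

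Calls higher and lower for 2-cell embryos against oocytes were 1960 and 617, against 993 and 744 with a common sum, 410 and 1202 with median-of-ratios scaling, 457 and 828 with quantile normalization and 608 and 1146 after the length trend was removed. In sperm against oocytes they were 4375 and 2938, against 5839 and 1415 after the length trend was removed, and 2807 and 4702 after quantile normalization. In sperm against 1-cell embryos they were 4212 and 3960, against 3094 and 4632 after quantile normalization and 5765 and 1435 after the length trend was removed.

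Replicate numbers are shared between groups, but no label says that they pair libraries. Deviations of same-numbered libraries correlated at 0.877 between 1-cell and 2-cell embryos and at -0.170 between oocytes and 1-cell embryos. The replicate block over 4 groups changed no member call and gave 3230, 2, 3162, 7573 and 8400 calls over all genes. In a block of oocytes and 1-cell embryos alone, calls were 0 over all genes and 0 among members as labelled, and 1527 and 0 with the oocyte numbers crossed, an alternative added after seeing the data. With 2 libraries a group and an uncertain depth, low genes such as his-70 outside sperm cannot be compared.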
